A study of Mus musculus with 6 samples.

Results

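The transcripts described here are those of amino acid and peptide transporters in mouse invariant natural killer T (iNKT) cells. Members were taken by name, as every gene of the solute carrier families Slc1, Slc3, Slc6, Slc7, Slc15, Slc36, Slc38 and Slc43 that had an array row naming no other gene, and where a gene had several such rows it was read from the one brightest on average over the 6 arrays. This gave 69 of the 22180 genes on the array. Of these, 66 are carriers or carrier subunits by name, and 3 (Slc7a6os, Slc6a19os and Slc36a1os) are genes on the opposite strand of a carrier that share only its name. The row of Slc6a9 also names Ccdc24, and Slc6a9 was not analysed here.

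iNKT cells are T cells with a nearly fixed receptor for lipids presented by CD1d, and they depend on the transcription factor PLZF. Gene expression was measured on whole-transcript arrays in 2 groups of 3 arrays. WT arrays came from control mice with the WT genotype. PLZF_ON arrays came from mice that express a form of PLZF that is constitutively acetylated. The labels name iNKT cells, with an RNA extraction from frozen tissue, and the sources used here do not give age, further alleles, the organ, how the cells were isolated or what drives the altered PLZF. They also do not say whether replicates came from separate animals, so a p-value here reflects the scatter of these arrays alone, and that scatter may be technical. The study named replicates 1 and 2 of each group as the arrays it analysed. These 4 arrays give the main comparison, PLZF_ON minus WT, and replicate 3 of each group enters a second comparison over all 6.

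Amino acids cross cell membranes mainly through carriers. In activated T cells Slc3a2, the CD98 heavy chain, pairs with Slc7 light chains such as Slc7a5 to bring in large neutral amino acids in exchange for others, glutamine enters through Slc1a5 and members of the Slc38 family, and carriers on lysosomes such as Slc38a9 report amino acid supply to the growth kinase complex mTORC1. Carriers of the Slc15 family move peptides of a few residues together with protons. Slc15a1, also called PEPT1, is best known from the small intestine, where it takes up peptides from digested protein.

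The array of PLZF_ON replicate 3 stood apart from the others. Across all rows it correlated with the other 5 arrays at 0.895 to 0.898, against 0.957 to 0.973 among those 5, and its values had an SD of 1.79 against 1.97 to 2.01. T cell markers were well above background on all arrays, with 9.47 the lowest value in the T cell list and Cd3e between 10.23 and 11.49. Summed on the linear scale, the 6 measured T cell markers were nevertheless lowest on PLZF_ON replicate 3. The sum was 6883 there and 9595 to 10929 on the other 5 arrays. Cd3e had its lowest value of 10.23 on that array. Zbtb16, which encodes PLZF, was at 9.96 and 10.19 in WT and 10.48 and 10.68 in PLZF_ON replicates 1 and 2, a difference of 0.51 that did not pass (limma adjusted p = 0.369). Its replicate 3 levels were 9.82 in WT and 9.54 in PLZF_ON, and over 6 arrays Zbtb16 differed by 0.24 (limma adjusted p = 0.941). All 4 measured markers of immature thymocytes were highest in PLZF_ON replicate 3, with Dntt at 7.19 against 3.46 to 4.10 on the other 5 arrays and Cd8b1 at 7.77 against 5.08 to 5.89. Their levels summed on the linear scale were 479 on that array and 83.7 to 109 on the other PLZF_ON arrays, and at most 102 in WT. Lyz2, a myeloid marker, was at 6.58 there against 3.96 to 4.48 elsewhere, and Csf1r at 5.09 against 4.45 to 4.71. Adgre1 was also highest there at 3.955, close to PLZF_ON replicate 2 at 3.912. Cd68, the brightest myeloid marker, was lowest there at 5.32 against 6.45 to 6.95, and Itgam at 5.24 lay within the range of the others. The 5 myeloid markers summed to 223 against 188 to 214. The 6 epithelial markers summed to 228 on that array and to 133 to 146 on the others. Krt18 was at 6.20 and Krt8 at 6.43 there. Epcam at 4.51 against 3.67 to 4.07 and Fabp2 at 3.38 against 2.72 to 2.97 were also highest there. Cdh17 at 3.36 lay within the range of the others, and Vil1 at 4.63 was close to WT replicate 3 at 4.58. The 4-array comparison leaves this array out and the 6-array comparison includes it. In bulk RNA, fewer cells of a type and less RNA per cell cannot be told apart.

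Levels are deposited log2 values. Background was gauged from 1390 genes for odour and pheromone receptors (olfactory and vomeronasal), which serve sensory neurons, and their 95th percentile of 5.08 is called the receptor reference. In WT 30 of the 69 genes had a mean above this reference, and 39 did not. The nearest gene above it was Slc6a20b at 5.13, and the nearest below it was Slc6a18 at 4.84. Array rows differ in how well their probes bind, so the order of levels that follows ranks array signals and not numbers of transcripts.

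The carriers with the highest signals in WT were those for glutamine and other neutral amino acids. Slc38a1, a sodium-coupled glutamine carrier, led at 9.62 (SD 0.07, n = 2), above 98.1% of all genes. Slc38a2, its neighbour on chromosome 15 and a relative known to be induced by amino acid shortage, followed at 9.09 (SD 0.38, n = 2). Slc38a4, the third gene of that cluster, was at 3.60, far below the receptor reference. Slc1a5, the exchanger ASCT2 that brings glutamine into T cells, was at 8.96 (SD 0.23, n = 2). Slc36a4 came next at 8.91, although its other row was at 4.87 and 5.30 in WT replicates 1 and 2. The CD98 pair followed, with Slc3a2 at 8.74 (SD 0.06, n = 2) and Slc7a5 at 8.42 (SD 0.18, n = 2). The taurine carrier Slc6a6 was at 8.05 and Slc7a6, another light chain of Slc3a2, at 7.76.

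**Figure D1:**
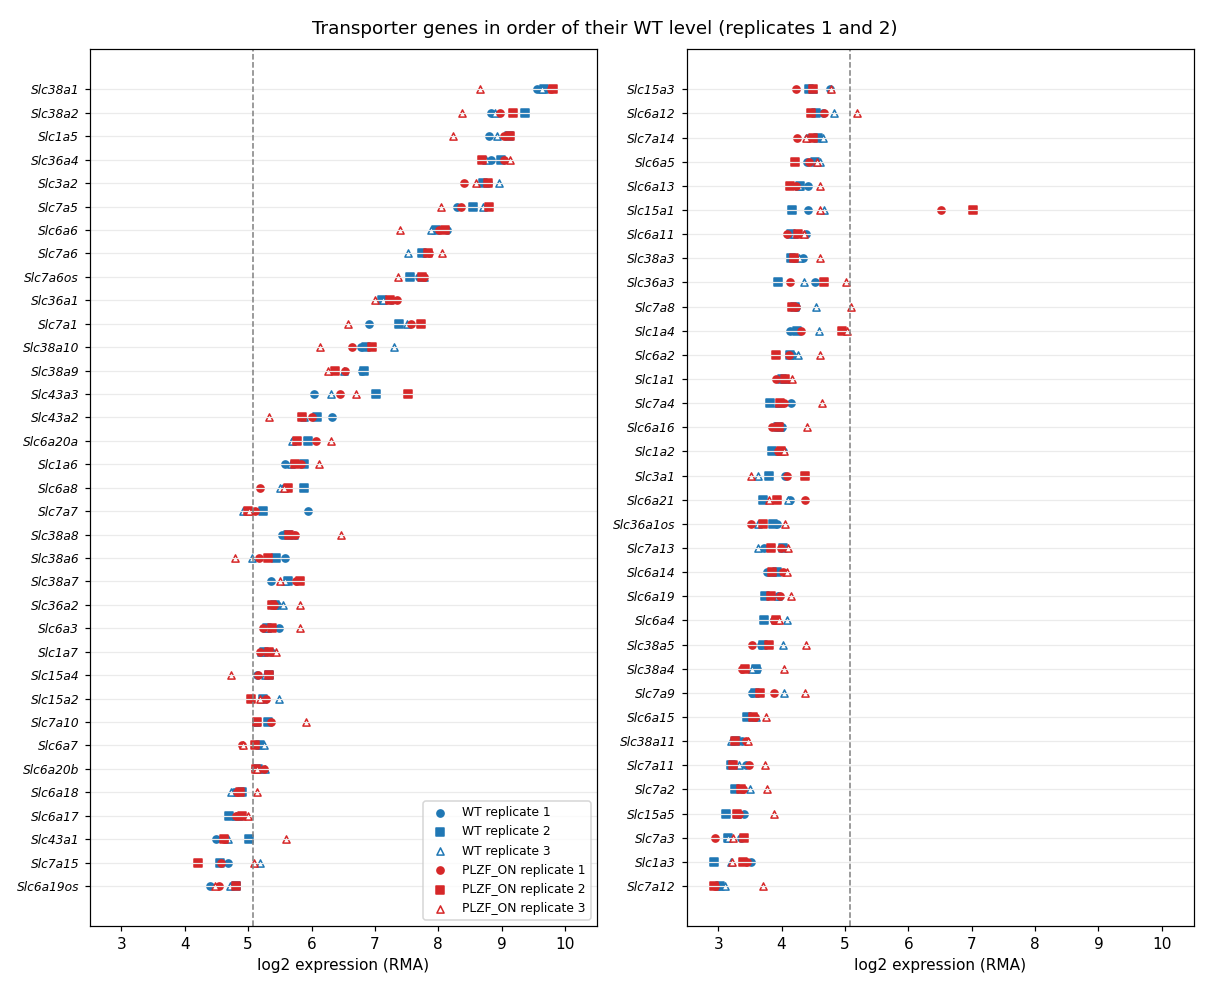
Deposited log2 levels of all 69 genes on the 6 arrays, ordered from the top left by the mean of WT replicates 1 and 2. Blue symbols are WT, red symbols PLZF_ON, open triangles replicate 3, and the dashed line is the receptor reference at 5.08. PLZF_ON replicates 1 and 2 of Slc15a1 lie at 6.52 and 7.02, away from its other 4 arrays.

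The families differed in how many members exceeded the reference in WT. Among the 11 Slc38 carriers 7 did, as did 3 of 4 Slc36 carriers and 2 of 3 Slc43 carriers. Of the 10 light chains or light-chain relatives in Slc7, 4 did (Slc7a5, Slc7a6, Slc7a7 and Slc7a10), and of the 5 genes grouped with the cationic amino acid carriers only Slc7a1, which takes up arginine and lysine. In the Slc6 family, most of whose members serve neurotransmitters and osmolytes, 6 of 19 did, led by Slc6a6. Of the 5 Slc1 glutamate carriers, Slc1a6 and Slc1a7 were above it at 5.73 and 5.31, while Slc1a1, Slc1a2 and Slc1a3 were between 3.23 and 4.01. Slc7a11, the cystine carrier xCT, was at 3.32, and Slc3a1, the heavy chain of kidney and gut, at 3.93.

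Among the 69 genes the comparison of the 4 arrays singled out the peptide carrier. Slc15a1 was the only one to pass limma at an adjusted p of 0.05 over all 23521 tested rows, so 1 of 69 genes (1.45%) was called, against 0.162% of all genes. An unadjusted p under 0.05 in limma was reached by 3 of the 69 (4.35%), namely Slc15a1, Slc7a1 and Slc38a9, which is below the 9.19% of all genes. The median difference was 0.013 over the 69 genes and -0.004 over all genes, on the log2 scale, with 37 higher and 32 lower. In 66 of the 69 (95.7%) the difference was under 0.5 in size, and the same held for 93.5% of all genes. Leaving out Slc15a1, differences ran from -0.53 for Slc7a7 to 0.51 for Slc7a1.

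**Figure D2:**
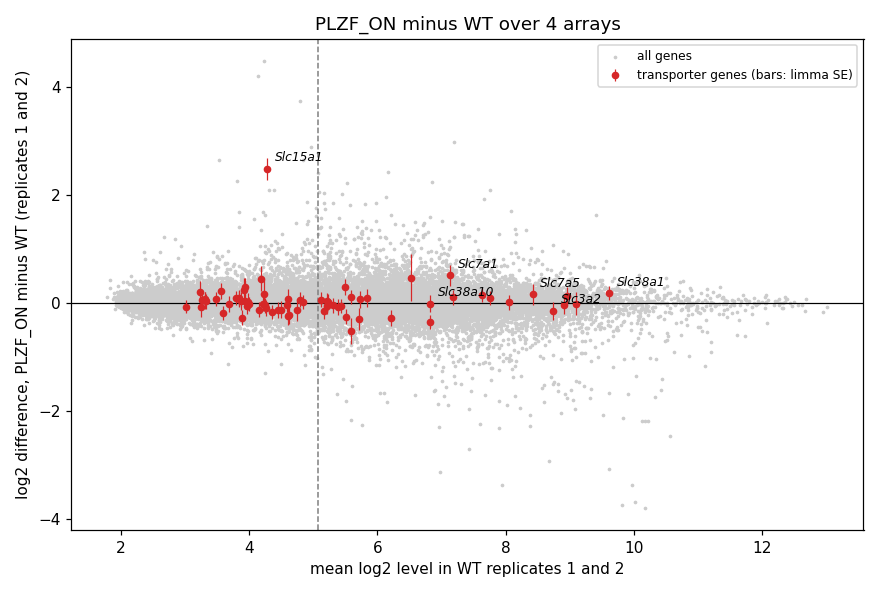
PLZF_ON minus WT over replicates 1 and 2 (log2 difference) against the mean WT level of the same replicates. Grey points are all 22180 genes, red points the 69 transporter genes with limma standard errors as bars, and the dashed line marks the receptor reference. Slc15a1 stands at 2.48, and the other 68 genes lie between -0.53 and 0.51.

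Slc15a1 was at 4.41 and 4.16 in WT replicates 1 and 2 and at 6.52 and 7.02 in PLZF_ON replicates 1 and 2. The groups were apart by far more than the distance between replicates. Slc15a1 rose 5.59-fold, a log2 difference of 2.48 with a 95% interval from 1.99 to 2.98. Its standard error was 0.20 with 2 arrays in each group, and the adjusted p in limma was 0.0206. The WT mean of 4.29 lay below the receptor reference, so that a transcript was not shown to be present in WT, and taken against the reference the PLZF_ON mean of 6.77 was 3.23-fold higher. On the same 4 arrays Vil1, Cdh17 and Fabp2, markers of gut epithelium, were between 2.72 and 4.54, under the receptor reference. Of the 6 epithelial markers 0 had an unadjusted limma p under 0.05, against 9.19% of all genes. Only Krt8, at 5.88 to 5.91, was above the reference. A part of epithelial RNA in the Slc15a1 level was not tested.

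The replicate 3 arrays did not show this difference. There Slc15a1 was at 4.67 in WT and 4.60 in PLZF_ON, so the PLZF_ON array lay at the level of the WT arrays. Over all 6 arrays Slc15a1 differed by 1.63 (SE 0.56, limma adjusted p = 0.678). With 3 arrays in each group 0 of the 69 genes passed, against 0.0947% of all genes. Slc15a1 was also the single gene of the 69 with an unadjusted p under 0.05 in limma over 6 arrays (1.45%, against 5.64% of all genes). With PLZF_ON replicate 3 left out and all 3 WT arrays kept, the difference was 2.35 (limma adjusted p = 0.0131). The part of the thymocyte transcripts of that array, and of its higher Lyz2, Csf1r, Krt8, Krt18, Epcam and Fabp2, in its Slc15a1 value was not tested. The part of its lower T cell sum was not tested either. Leaving out an array of the 4 leaves 1 array in a group, which is then assumed to vary like the other group. In the 4-array comparison the call was lost without PLZF_ON replicate 2, where the difference was 2.23 (limma adjusted p = 0.136). There 0 of all tested rows passed in limma, with 1803 at an unadjusted p under 0.05. The call was also lost, at the same difference of 2.48, when all 41345 deposited rows were tested together (limma adjusted p = 0.288), where 0 rows passed and 3042 had an unadjusted p under 0.05.

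None of the genes next to Slc15a1 passed the test. In the RefSeq gene order of chromosome 14 the 3 protein-coding genes on one side are Ipo5, Farp1 and Stk24. Those on the other side are Dock9, Ubac2 and Gpr18. Of these 6, 0 passed limma over the 4 arrays, against 0.162% of all genes. Also 0 had an unadjusted limma p under 0.05, against 9.19% of all genes. At these shares a count of 0 among these 6 genes is unremarkable. Their differences ran from -0.36 for Farp1 to 0.10 for Ipo5. Dock9, the closest neighbour beyond its start, was at 5.94 in WT and 5.65 in PLZF_ON.

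The 250 bases before an annotated transcript start of Slc15a1 are shown because it is the gene that changed, and those of Slc3a2 beside them as a carrier with a high level in both groups. The Slc15a1 window ends at the outer start of the gene, whereas that of Slc3a2 precedes a transcript start inside the gene, which spans positions 8706882 to 8723369. Both come from the RefSeq annotation of GRCm38.p6, are read 5′ to 3′ on the minus strand, and lie at chr14:121505255-121505504 and chr19:8713898-8714147. Capitals mark matches, on either strand, to 5 motifs that were chosen with the sequences in view: the GC box GGGCGG, the E boxes CACGTG (bound by Myc) and CAGCTG (bound by E proteins), the amino acid response element TGATGNAA and the TATA box TATAAA.
Slc15a1: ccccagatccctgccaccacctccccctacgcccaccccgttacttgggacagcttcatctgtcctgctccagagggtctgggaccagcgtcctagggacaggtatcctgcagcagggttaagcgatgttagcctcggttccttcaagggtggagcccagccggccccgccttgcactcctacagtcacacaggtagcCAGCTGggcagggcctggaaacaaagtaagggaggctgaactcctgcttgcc
Slc3a2: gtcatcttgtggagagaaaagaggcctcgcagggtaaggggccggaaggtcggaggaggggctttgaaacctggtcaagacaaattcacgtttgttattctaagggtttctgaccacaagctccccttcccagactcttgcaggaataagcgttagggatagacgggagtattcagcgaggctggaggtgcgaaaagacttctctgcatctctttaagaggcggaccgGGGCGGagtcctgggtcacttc

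The Slc15a1 window holds 1 match, to CAGCTG, which begins 52 bases before the start and which 13.0% of all 32851 promoter windows of that length also hold. The Slc3a2 window holds 1 match to GGGCGG, found in 32.7% of all windows. The other 3 motifs had no match in either window, which says only that these letters are not there. GC content was 62.0% for Slc15a1 and 53.6% for Slc3a2, with a median of 52.4% over all windows. A window was found for 48 of the 66 carriers.

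The other peptide carriers did not pass. Slc15a2, the high-affinity carrier known from kidney, was at 5.22 in WT and differed by -0.06 (SE 0.15). Slc15a4, a carrier of histidine and peptides in the endolysosomes of immune cells, was at 5.13, 5.34 and 5.27 in WT replicates 1 to 3 and at 5.16, 5.33 and 4.73 in PLZF_ON replicates 1 to 3. Its groups overlapped, with a difference of 0.01 (SE 0.15) over the 4 arrays. Slc15a3, its close relative, was below the receptor reference in both groups and differed by -0.24 (SE 0.17), and Slc15a5 was at 3.27 in WT.

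**Figure D3:**
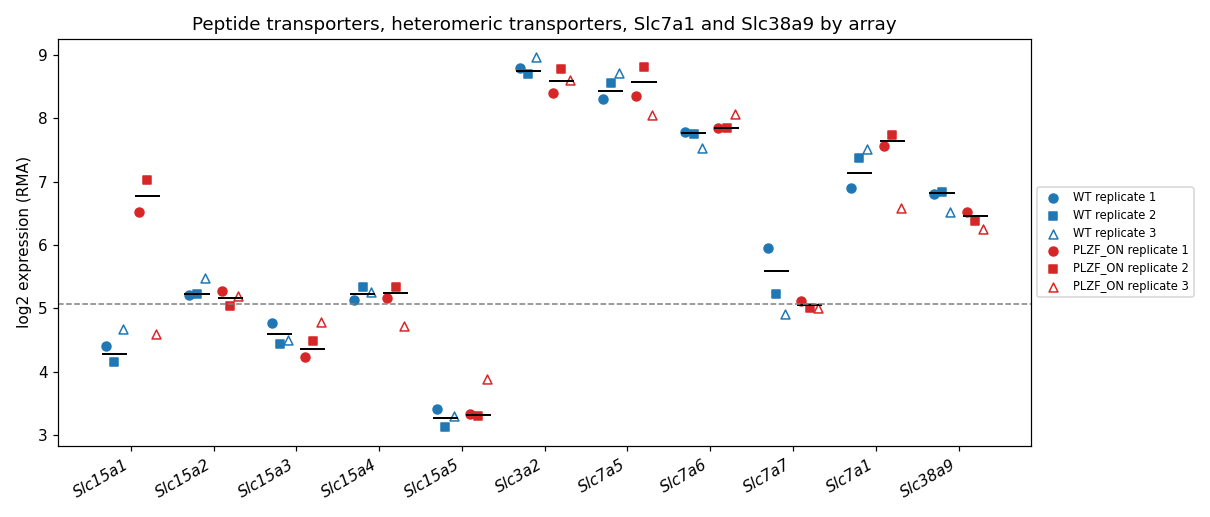
Deposited log2 levels by array for the 5 Slc15 peptide carriers, the heavy chain Slc3a2 with 3 of its light chains, the cationic carrier Slc7a1 and the lysosomal arginine sensor Slc38a9. Blue symbols are WT and red symbols PLZF_ON, open triangles are replicate 3, black bars are the means of replicates 1 and 2, and the dashed line is the receptor reference at 5.08. Groups are apart in replicates 1 and 2 for Slc15a1, Slc7a1, Slc38a9, Slc7a6 and Slc7a7, with a called difference for Slc15a1.

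The CD98 heavy chain and the light chain Slc7a5 had high signals in both groups, and neither passed. Slc3a2 was at 8.78 and 8.70 in WT replicates 1 and 2 and at 8.40 and 8.78 in PLZF_ON replicates 1 and 2, and the groups overlapped. Its difference was -0.15 (SE 0.17, limma adjusted p = 0.881), with a 95% interval from -0.56 to 0.26. Slc7a5 was at 8.30 and 8.55 in WT and at 8.35 and 8.80 in PLZF_ON, again with overlap. Its difference was 0.15 (SE 0.19, limma adjusted p = 0.9), with a 95% interval from -0.32 to 0.63. Changes of 1 on the log2 scale, in either direction, lay outside both intervals. In the replicate 3 arrays Slc7a5 was at 8.71 in WT and at 8.05 in PLZF_ON, its lowest level on any array. Over all 6 arrays the difference of Slc7a5 was -0.12 (SE 0.22). Slc3a2 was at 8.96 in WT and 8.59 in PLZF_ON replicate 3, and differed by -0.22 (SE 0.17) over 6 arrays.

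Among the other light chains of Slc3a2, Slc7a6 and Slc7a7 exchange cationic for neutral amino acids. Slc7a6 was at 7.78 and 7.75 in WT and 7.85 and 7.84 in PLZF_ON, a difference of 0.08 (SE 0.13, limma adjusted p = 0.921), and at 7.52 and 8.06 in the replicate 3 arrays. It was 1 of 2 genes whose groups did not overlap over all 6 arrays, the other being the proline carrier Slc6a7 with a difference of -0.22 over 6 arrays. These 2 of 69 make 2.9%, against 11.7% of all genes. Slc7a7 was at 5.95 and 5.23 in WT and 5.11 and 5.001 in PLZF_ON, a difference of -0.53 (SE 0.24, limma adjusted p = 0.596). Its highest value was WT replicate 1, and WT replicate 3 lay lowest of all 6 arrays at 4.91. Slc7a6os, which encodes a nuclear protein and not a carrier, was at 7.63 in WT and differed by 0.14 (SE 0.13).

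Slc7a1 and Slc38a9 both concern arginine, the first as its main importer and the second as its sensor on the lysosome. Slc7a1 was at 6.90 and 7.38 in WT and 7.57 and 7.73 in PLZF_ON replicates 1 and 2, so PLZF_ON was higher on both arrays. Its difference was 0.51 (SE 0.19, unadjusted p = 0.0378, limma adjusted p = 0.485). In the replicate 3 arrays the order was the opposite, with 7.51 in WT and 6.58 in PLZF_ON, and over all 6 arrays the difference was 0.03 (SE 0.32). Slc38a9 was at 6.80 and 6.83 in WT and 6.53 and 6.38 in PLZF_ON. Its difference was -0.36 (SE 0.13, unadjusted p = 0.0353, limma adjusted p = 0.47). Over 6 arrays Slc38a9 differed by -0.33 (SE 0.16), with 6.52 in WT replicate 3 just below PLZF_ON replicate 1. Neither gene passed over all rows.

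For the glutamine carriers with the highest signals, the intervals of the difference all spanned 0. Slc38a1 was at 9.56 and 9.67 in WT and 9.77 and 9.81 in PLZF_ON, a difference of 0.17 (SE 0.13, 95% interval -0.15 to 0.49). Slc38a2 differed by -0.02 (95% interval -0.53 to 0.49) and Slc1a5 by 0.13 (95% interval -0.26 to 0.52). The second row of Slc1a5 differed by 0.27 (SE 0.23). Slc1a4, a relative of Slc1a5 that carries alanine, serine and cysteine, was at 4.14 and 4.24 in WT and 4.31 and 4.96 in PLZF_ON, below the receptor reference throughout. Slc38a7, a glutamine exporter of lysosomes, was at 5.50 in WT and 5.79 in PLZF_ON, a difference of 0.29 (SE 0.15). Over the 11 Slc38 genes differences ran from -0.36 to 0.29, and 0 passed limma.

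Of the remaining genes among the 12 highest, Slc6a6 differed by 0.01 (SE 0.14), Slc36a1, a proton-coupled carrier of lysosomes, by 0.10 (SE 0.14) and Slc38a10 by -0.02 (SE 0.16). Slc36a4 differed by -0.05 (SE 0.17) in the row that represents it. Its other row disagreed, at 4.87 and 5.30 in WT and 6.10 and 5.87 in PLZF_ON replicates 1 and 2, a difference of 0.90 (SE 0.19, unadjusted p = 0.00304, limma adjusted p = 0.186), with 4.87 and 4.62 in the replicate 3 arrays. That row, like Slc15a1, was higher in PLZF_ON replicates 1 and 2 and not in replicate 3.

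Slc43a3, a carrier of purine nucleobases despite its family, differed more between replicates 1 and 2 of a group than between groups. It was at 6.04, 7.01 and 6.31 in WT replicates 1 to 3 and at 6.45, 7.52 and 6.71 in PLZF_ON replicates 1 to 3. Same-numbered arrays differed by 0.42, 0.51 and 0.40 in replicates 1 to 3, with PLZF_ON higher each time. WT replicate 2 lay above PLZF_ON replicates 1 and 3, so the groups overlapped, and the difference over 4 arrays was 0.47 (SE 0.43, limma adjusted p = 0.852). It changed sign without WT replicate 1 (-0.02) and without PLZF_ON replicate 2 (-0.07). Its relatives Slc43a1 and Slc43a2, carriers of large neutral amino acids, differed by -0.14 and -0.29 over the 4 arrays. Slc43a3 was picked out after its values were seen.

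Of the 24 genes in the Slc6 family and the Slc1 glutamate group, 8 were above the receptor reference in WT, so for most of them a difference could have gone unseen. Over the 19 Slc6 genes differences over the 4 arrays ran from -0.31 for the creatine carrier Slc6a8 (SE 0.20) to 0.23 for Slc6a21 (SE 0.22), and over the 5 Slc1 glutamate carriers from -0.05 to 0.20. None of these 24 genes passed limma or had an unadjusted p under 0.05, against 0.162% and 9.19% of all genes. Slc3a1, the other heavy chain, differed by 0.30 (SE 0.17) at levels below the receptor reference, and Slc7a11 by 0.04 (SE 0.16).

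Counted per array, PLZF_ON replicates 1 and 2 lay both above or both below the WT pair in 23 of the 69 genes (33.3%), against 38.1% of all genes. Of these, 12 were higher, against 18.8% of all genes, and 11 lower, against 19.3%. Among the higher genes were Slc38a1, Slc7a6, Slc7a1, Slc38a7, Slc38a8, Slc1a4 and Slc15a1, and among the lower Slc38a9, Slc43a2, Slc7a7, Slc38a6 and Slc36a2. The share is near that of all genes in both directions.

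The replicate 3 arrays were set against each other without a test. Of the 30 genes above the receptor reference in WT, 18 (60%) were lower in PLZF_ON replicate 3 than in WT replicate 3, against 65.4% of all genes above it. Of the 39 below the reference, 31 (79.5%) were higher in PLZF_ON replicate 3, against 76.3% of all genes below it. The genes with a high signal thus tended to be lower on that array and those with a low signal higher, as over the whole array. Slc38a1 was at 8.66 there and between 9.56 and 9.81 on the other 5 arrays, and Slc1a5 was at 8.24 against 8.80 to 9.14. Slc38a10 was at 6.14, against 6.64 to 7.30. In the other direction Slc38a8 was at 6.47 against 5.53 to 5.73, and the second row of Slc7a11 was at 5.37 against 2.64 to 2.88, while the row that represents Slc7a11 was at 3.74 against 3.21 to 3.48.

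**Figure D4:**
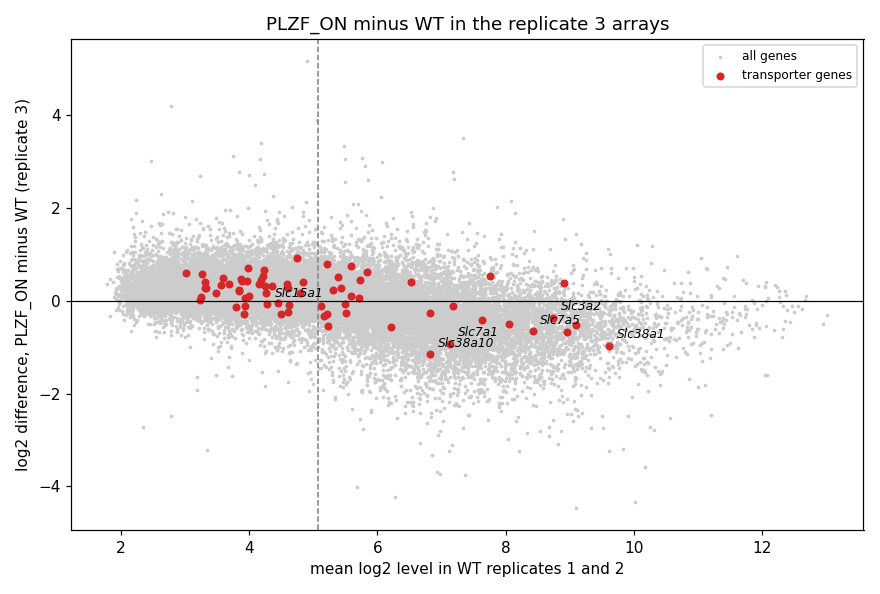
PLZF_ON minus WT in the replicate 3 arrays (log2 difference, 1 array per group) against the mean level of WT replicates 1 and 2. Grey points are all 22180 genes, red points the 69 transporter genes, and the dashed line is the receptor reference. Of the transporter genes right of the line 18 of 30 lie below 0 and of those left of it 31 of 39 lie above, and Slc15a1 lies at -0.07.

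Other genes of amino acid handling were read from 6 lists covering the amino acid response, amino acid sensing by mTORC1, amino acid enzymes, carriers of other families, peptide sensing and transcriptional regulators. Of 126 genes 114 were measured, and 0 of them passed limma over the 4 arrays. An unadjusted p under 0.05 in limma was reached by 3 higher and 6 lower genes (7.89%, against the 9.19% of all genes given above), and the median difference was -0.04.

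In the sensing list, Sesn1, a sestrin that restrains mTORC1 when leucine is short, was at 7.85, 7.71 and 7.71 in WT replicates 1 to 3 and at 6.65, 6.51 and 6.45 in PLZF_ON replicates 1 to 3. All 3 PLZF_ON arrays, replicate 3 included, lay more than 1 log2 unit below all 3 WT arrays. The difference was -1.20 over 4 arrays (SE 0.14, limma adjusted p = 0.0594). Over 6 arrays Sesn1 fell by 1.22 (limma adjusted p = 0.0459), and it was the single gene of the 114 to pass there. That call was lost in the 6-array comparison without any 1 of the arrays other than PLZF_ON replicate 3, with limma adjusted p between 0.111 and 0.345, although the difference stayed between -1.28 and -1.17. Fnip1, a partner of folliculin in the same pathway, was at 5.79 and 6.19 in WT and 6.59 and 6.99 in PLZF_ON, a difference of 0.81 (SE 0.21, limma adjusted p = 0.268). Lamtor4 and Lamtor1, parts of the lysosomal scaffold of mTORC1, differed by -0.41 and -0.32.

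Among carriers of other families, Slc16a10, which moves aromatic amino acids, was at 8.15, 7.98 and 7.94 in WT and 6.82, 7.37 and 6.37 in PLZF_ON. The groups did not overlap on the 6 arrays, and the 4-array difference was -0.97 (SE 0.21, limma adjusted p = 0.197). Slc25a15, the mitochondrial ornithine carrier, differed by -0.84 (SE 0.23). Slc25a12, an aspartate-glutamate carrier of mitochondria, differed by 0.42 (SE 0.17) and Slc25a22, a mitochondrial glutamate carrier, by -0.37 (SE 0.20). In the replicate 3 arrays Slc25a15 was higher in PLZF_ON, at 6.32 against 5.96 in WT, and its 6-array difference was -0.44. Slc25a22 was also higher in PLZF_ON there, at 5.68 against 5.64, while Slc25a12 kept its direction. Among the response genes Mthfd2, a mitochondrial enzyme of folate metabolism, differed by 0.76 (SE 0.22, limma adjusted p = 0.345) with no overlap on the 6 arrays. The kinase Eif2ak4 (GCN2), which senses amino acid shortage, differed by 0.24, Aldh18a1 of proline synthesis by -0.22 and Phgdh of serine synthesis by -0.41. Eif2ak4 was lower in PLZF_ON replicate 3, at 4.96 against 5.73 in WT replicate 3, whereas Aldh18a1 and Phgdh kept their direction. Among the enzymes Glul, glutamine synthetase, was at 9.11 and 9.42 in WT and 8.72 and 8.68 in PLZF_ON, a difference of -0.56 (SE 0.16, limma adjusted p = 0.31). Gclc of glutathione synthesis, Odc1 of polyamine synthesis and Bckdk, a kinase of branched-chain amino acid breakdown, differed by -0.37, -0.48 and 0.55. Bckdk was lower in PLZF_ON replicate 3, at 6.615 against 6.94 in WT replicate 3, whereas Gclc and Odc1 kept their direction.

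Peptide sensing was read from 6 of 9 listed genes. Nod1, a cytosolic sensor of bacterial cell wall peptides, some of which Slc15 carriers can move in epithelial cells, was at 6.80 and 6.58 in WT and 5.60 and 5.53 in PLZF_ON, and its difference was -1.13 (SE 0.14, limma adjusted p = 0.0733). Tlr7, an endosomal RNA receptor that needs Slc15a4 in dendritic cells, was at 6.34 and 5.76 in WT and 4.36 and 4.40 in PLZF_ON. Its difference was -1.67 (SE 0.21, limma adjusted p = 0.0733), and its PLZF_ON mean of 4.38 was below the receptor reference. Taken against the reference, the WT mean of Tlr7 was 1.96-fold higher, or 0.97 on the log2 scale. In the replicate 3 arrays Nod1 was at 6.37 and 6.12 and Tlr7 at 6.97 and 5.10, in WT and PLZF_ON. Slc46a3, a lysosomal carrier, and Nod2 differed by -0.29 and 0.06. Of the 9 regulators 0 had an unadjusted limma p under 0.05 over the 4 arrays, against 9.19% of all genes. Mxd4, an antagonist of Myc, differed by -0.62 (SE 0.26), Myc itself by -0.28 (SE 0.19), Mycn by -0.26 and Hif1a by 0.20.

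**Figure D5:**
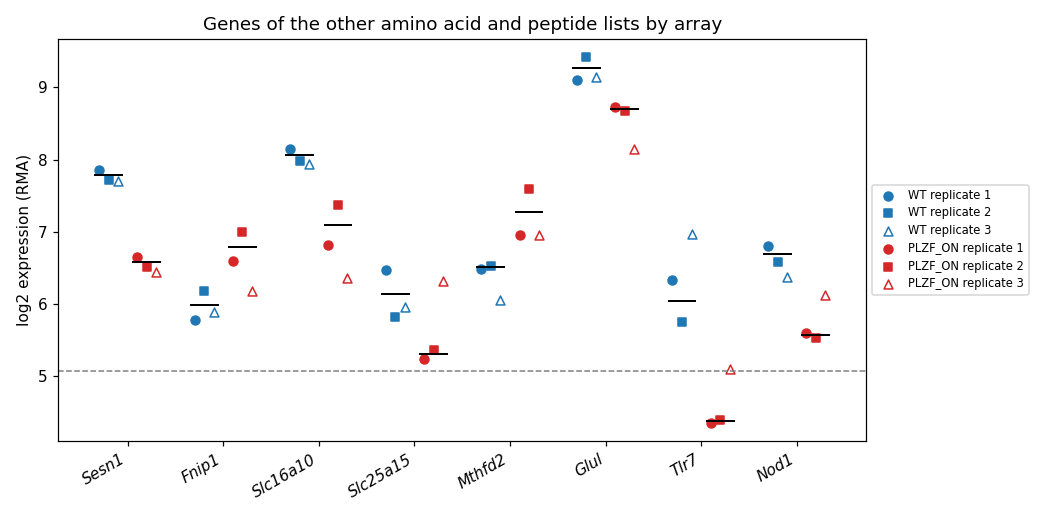
Deposited log2 levels by array for 8 genes of the sensing, carrier, response, enzyme and peptide sensing lists. Blue symbols are WT, red symbols PLZF_ON, open triangles replicate 3, black bars the means of replicates 1 and 2, and the dashed line the receptor reference. Sesn1 lies between 7.71 and 7.85 in WT and between 6.45 and 6.65 in PLZF_ON.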

How the data were processed

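Total RNA was measured on 6 whole-transcript arrays, 1 per sample. Per the submitters' processing notes, which give no version, the authors made the deposited log2 values with RMA, a method that subtracts background, equalises the arrays' distributions and understates differences at low signal. A genome build and annotation were not given in sources used here. Values were used as deposited. Of 41345 rows, 23521 have exactly 1 gene symbol in the platform annotation and were tested, 1814 have several and 16010 are not listed there. All 69 members matched the RefSeq gene table of GRCm38.p6 by Entrez number with the same symbol.

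PLZF_ON was compared with WT by limma 3.58.1 in R 4.3.3 (lmFit, eBayes, genotype as the only term, two-sided), adjusted by Benjamini-Hochberg over all tested rows at 0.05. Members and lists were chosen with earlier results of these data known, so the members as a list received no test. Named were Slc15a1, Slc7a5, Slc3a2, the 12 members highest in WT, members called or with an unadjusted p under 0.05 above the receptor reference, light chains of Slc3a2, and up to 4 genes per other list by smallest p. Other members, such as Slc43a3, were named after their values were seen. No detection flags were used here. The number of arrays limits the precision.

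On simulated data the 4-array fit of 23521 rows recovered 87% of the genes set to differ by 1.5 log2 units and 99% of those set to differ by 3, with 7 false calls. For the 6-array fit the shares were 78% and 100%, with 9 false calls. The simulated noise was normal, independent between arrays and drawn from the variance prior that limma fitted to these arrays. It held no array that stood apart, no shift shared by replicates and no damping at low signal. These shares therefore check the fit and do not give its sensitivity on the real arrays. The labels state no pairing of replicate numbers, so the numbers were not taken as pairs. Same-numbered arrays deviated from their group means with correlations of 0.09, 0.25 and 0.24 for replicates 1, 2 and 3, all positive. These values do not settle whether the numbers mark pairs. Other settings tried were quantile normalization, median centring, brighter rows alone, averaging a gene's rows, testing all deposited rows, a variance trend, array weights, a replicate block and leaving out each array.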

Additional observations from a re-analysis of the deposited data

How the results depend on the processing

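Over 4 arrays 1 of the 69 genes, Slc15a1, passed under 10 of the 13 alternatives. Of these 10, the one with brighter rows alone kept Slc15a1 only through its PLZF_ON level and gives no support. The count was 0 when all 41345 deposited rows were tested and with all 6 arrays, and leaving out 1 array in turn gave 0 to 1, with 0 without PLZF_ON replicate 2. A block on replicate number, for which no label states a pairing, was also run. Under it Slc15a1 had the same difference of 2.48 (limma adjusted p = 0.026), 101 of all tested rows were called against 40 without the block, and 5 of 6 arrays correlated best with their own number in the other group. Under the block Slc43a3 had a limma adjusted p of 0.32. Over 6 arrays the count of members was 0, with 1 under array weights (Slc15a1, limma adjusted p = 0.00659), and leaving out 1 array in turn gave 0 to 1, with 1 without PLZF_ON replicate 3. Of the pathway genes 0 passed over 4 arrays and 1 (Sesn1) over all 6, and leaving out 1 array in turn gave 0 to 1, with Tlr7 called without WT replicate 2 (limma adjusted p = 0.0165). Over 6 arrays Sesn1 lost the call with the replicate block (limma adjusted p = 0.0782), quantile normalization (0.0502), median centring (0.0735), a variance trend (0.0997) and all deposited rows (0.207), while its difference stayed between -1.24 and -1.11. The number of genes whose groups did not overlap was 23 over 4 arrays and 2 over all 6 arrays. It was 13 among brighter rows, where 31 of the 69 genes are left. A share over all brighter rows is not given here, so this count cannot be set against the 38.1% of all genes. Over all tested rows the 40 calls of the 4-array comparison became 106 without WT replicate 2 and 0 without PLZF_ON replicate 2 or with all deposited rows, where limma left 3042 rows at an unadjusted p under 0.05. The 22 calls of the 6-array comparison became 259 with array weights, 107 without PLZF_ON replicate 3, 5 with median centring and 0 with all deposited rows, and 0 to 6 without another array. The median difference of 0.013 moved by less than the spread between arrays under each alternative run, between -0.0345 and 0.055. Among the 15 named members, 9 changed sign under at least 1 alternative, in 19 of 195 values, none of them called, and Slc15a1 was not among them. Where no cause is given, the cause was not tested. Rows near the background reference limit what can be seen in the 39 dim genes.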
